A study of Rattus norvegicus with 12 samples.

Results

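Uncut rat calvaria, the flat bone of the skull roof, was described from the 4 control arrays of the 12 in the series. These arrays carry total RNA from rats 10 weeks old, taken 6 h after an operation in which the periosteum was taken off and the bone itself was left whole. The other 8 arrays, 4 of bur-drilled and 4 of laser-ablated bone, were not used, and no treated sample enters any value here. The strain, the sex and whether the 4 samples came from separate animals are not given in the sources used here, so the spread between arrays may be partly technical. The control bone had been exposed by surgery and so is not bone of an unoperated animal.

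The arrays are one-colour Agilent arrays of 45598 probes, each 60 bases long, under 34912 gene names. A gene counted as measured when a probe was well above background on all 4 control arrays, and where several probes of a name qualified, the probe of highest mean was taken. This gave 19203 genes, 55% of the names, of which 10631 carried an official symbol. Levels are log2 of the scanner's processed signal after the 4 arrays were brought to a common 75th percentile. The mean level ran from 3.31 to 17.75 with a median of 7.76. Genes were ranked by that mean. A probe's brightness depends on its own sequence as well as on the RNA, so a rank orders probe signals and not transcript numbers. The sample is bulk tissue, in which fewer cells of a type and less RNA per cell cannot be told apart.

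Calvarial bone is formed directly from mesenchyme, without a cartilage model. Osteoblasts on its surfaces lay down type I collagen and mineral-binding proteins, and those that become buried turn into osteocytes, which signal through a canaliculate network and secrete the Wnt antagonist sclerostin, the product of Sost. Osteoclasts, large cells of the monocyte lineage, resorb the matrix. Between the inner and outer tables lies marrow, where red cells, granulocytes and B cells are made. Fibrous sutures, the dura and the scalp muscles border the bone.

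The probes of 4 genes that the account turns on are shown whole, since the signal belongs to these bases. Sparc gave the highest signal, Hbe2 stands for the globins, Sost is the gene named in the study's title, and Myl11 (Mylpf in the array's names) had the largest spread between the 4 arrays. Their positions on the array's build, rn4 (RGSCv3.4), are chr10:40811473-40811532 on the minus strand for Sparc, chr1:161648636-161648695 on the minus strand for Hbe2, chr10:91026551-91026610 on the minus strand for Sost and chr1:186474405-186474464 on the plus strand for Myl11. The array's annotation assigns each to the gene named, and exon or untranslated region is not marked there.
Sparc: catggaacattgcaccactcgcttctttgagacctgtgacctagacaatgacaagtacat
Hbe2: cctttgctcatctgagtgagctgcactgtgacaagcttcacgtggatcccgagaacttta
Sost: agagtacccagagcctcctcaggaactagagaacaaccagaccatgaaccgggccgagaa
Myl11: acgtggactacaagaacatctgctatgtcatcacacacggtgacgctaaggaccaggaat

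Stretches of 30 bases from 3 other probes show a limit of a ranking by signal. Capitals mark words of 16 letters found at least 20 times over 33469 RefSeq promoter windows of 300 bases (GRCr8 assembly), so they are not particular to the gene. In all such counts a window counted once per strand that held the word, so a window with both strands counted for each. A gene symbol may have several windows. The probes map on rn4 to chr4:4695821-4695880 on the minus strand (LOC100910079), chr1:77059860-77059918 on the plus strand (Ceacam9) and chr13:106421687-106421746 on the minus strand (Prox1, a homeobox factor of lymphatic endothelium).
LOC100910079: aaggtAGGGGTTGGGGATTTAGCTCAGTGG
Ceacam9: ACCACATGGTGGCTCAtgaccatctgtaat
Prox1: TTTGTGTGTGTGTGTGTGTGTGTGTGTGTG

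By that count the most widely shared word of the LOC100910079 probe was found 225 times, that of Prox1 123 times and that of Ceacam9 100 times. The LOC100910079 letters are those of ID elements and the Ceacam9 letters those of B2 elements, both short interspersed repeats that are common in rat transcripts, and Prox1 shows a run of GT. LOC100910079 ranked 8 at 17.12 ± 0.15 (SD, n = 4) and Ceacam9 18 at 16.65 ± 0.18. Of all measured genes 210, or 1.09%, were read by a probe with such a word, against 4 of the 100 highest and 35, or 7.0%, of the 500 highest. Of those 35, 17 held a GT run, at ranks 189 to 434, and all 17 were highest on replicate 2 and lowest on replicate 1, with means of 13.66, 14.70, 14.51 and 14.36 on replicates 1 to 4. How far repeats in other RNAs feed these signals was not tested. The ranks of LOC100910079 and Ceacam9 are given as ranks of a probe only, and these examples, with Prox1, were chosen after their values were seen.

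The 4 arrays lay on 1 slide, with 68.0% to 69.3% of spots well above background and 0 saturated spots. The 75th percentile of signal over probes ran from 197 to 227 before scaling. Pearson's r between arrays over the 19203 genes ran from 0.976 to 0.985 in the 6 pairs, a correlation across genes, which are not independent replicates. The brightest added control RNA, of the 10 spike-ins labelled with each sample, read 10.96 on replicate 2 and 11.33 to 11.60 on the other arrays in unscaled log2 signal.

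The brightest probes were those of bone matrix, red cells, ribosomes, mitochondria and granulocytes. The 100 highest genes made up 25.5% of the summed signal of all measured genes and the 1000 highest 66.9%. By the array's descriptions and the fixed lists, the 100 highest held 36 ribosomal proteins, 7 globins or globin chaperones, 6 genes of the mitochondrial genome, 5 defensins, 3 members of the osteoblast and bone matrix list, 4 probes with a widely shared word, 15 other named genes and 24 without an official symbol. Among the named ones were Cst3, the protease inhibitor cystatin C, at 16.80 ± 0.26, and the ribosomal RNA gene Rn45s at 17.17 ± 0.21. Fth1 and Ftl1, the ferritin chains, Tmsb4x, Eef1a1 and Hspa8 were also in this set and, apart from Hspa8, were picked for mention after their values were seen. Of 4595 genes with several measured probes, 1180, or 25.7%, had a gap of more than 3 between the brightest probe and the next. Among genes named here, Car3, Cd22, Cd44, Col11a2, Csf1, Cxcl12, Dkk3, Ebf1, Hsp90aa1, Hspa8, Ier2, Igf2, Jchain, Jund, Lpl, Mbp, Mcpt8, Mki67, Pdpn, Per1, Ptprz1, RatNP-3b, Rsad2, S100a4, S100a8 and Spns2 had another measured probe more than 3 below the one used.

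**Figure D1:**
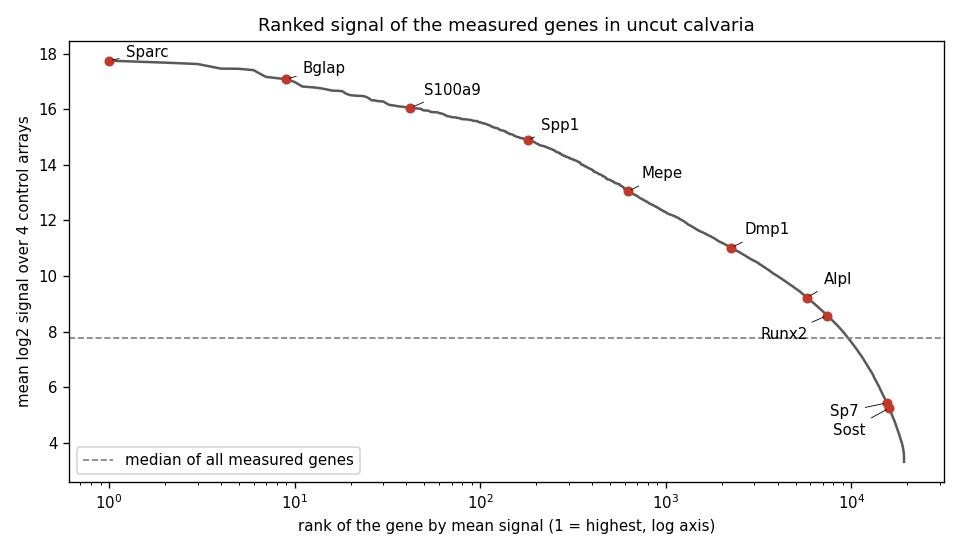
Mean log2 signal (y axis) of the 19203 measured genes against their rank (x axis, log scale), with 10 genes marked and the median of all measured genes dashed. Sparc, Bglap, S100a9 and Spp1 lie at the top of the curve, Mepe and Dmp1 below them, and Sp7 and Sost well under the median of 7.76.

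Structural genes of the osteoblast were at the head of the ranking. Of the 32 genes of the osteoblast and bone matrix list, 32 were measured, with a median percentile of 91.1 among all measured genes, on a scale where 100 is the highest gene. Sparc, which encodes the collagen- and calcium-binding protein osteonectin, read 18.01, 17.60, 17.64 and 17.75 on replicates 1 to 4, a mean of 17.75 ± 0.18 (SD, n = 4), and ranked 1. Bglap, which encodes osteocalcin, read 17.38, 17.01, 16.97 and 16.97 and ranked 9. Col1a1, the alpha 1 chain of type I collagen, read 17.24, 16.95, 16.94 and 16.80 and ranked 10. Replicate 1 was the highest array for each of the 3, and the highest array exceeded the lowest by 1.33-fold for Sparc and Bglap and 1.36-fold for Col1a1.

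The promoter of Bglap, a gene used as a marker of mature osteoblasts, is shown because its known elements can be read in it. It is the RefSeq window from 250 bases before to 50 after the annotated start, chr2:176137269-176137568 on the minus strand of GRCr8, with capitals for the letters AACCACA, a core site of Runx factors, and TATAAA, the TATA box, searched on both strands.
Bglap promoter: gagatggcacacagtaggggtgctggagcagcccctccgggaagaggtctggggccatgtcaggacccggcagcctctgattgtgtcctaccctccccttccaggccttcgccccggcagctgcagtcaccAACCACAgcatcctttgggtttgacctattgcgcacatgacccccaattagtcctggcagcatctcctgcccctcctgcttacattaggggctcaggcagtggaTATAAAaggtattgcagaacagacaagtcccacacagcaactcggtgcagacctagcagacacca
AACCACA begins 119 bases and TATAAA 15 bases before the annotated start. AACCACA was found in 1502 of 27457 promoters with 1 window per symbol, or 5.47%, and in 3 of the 23 osteoblast and bone matrix genes with a window, Bglap, Mmp13 and Runx2. TATAAA was found in 14.3% of all promoters and in 6 of those 23, Bglap, Col1a2, Ibsp, Mmp13, Postn and Spp1. These are matches of letters, and binding was not measured.

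Other matrix genes of the list followed. Col1a2, the partner chain of Col1a1, was at 15.36 ± 0.25. Spp1, the phosphoprotein osteopontin, read 14.91, 14.39, 15.24 and 15.04. Col5a2 and Col11a2, chains of fibrillar collagens, were at 13.04 ± 0.37 and 13.03 ± 0.31, Omd, the bone keratan sulfate proteoglycan osteomodulin, at 12.72 ± 0.24 and Ibsp, the bone sialoprotein, at 12.26 ± 0.17. Mmp13, a collagenase of late osteoblasts, read 12.89, 11.95, 13.54 and 13.18, lowest on replicate 2. Serpinh1, a collagen chaperone, was at 12.14 ± 0.33 and Cthrc1, a secreted collagen-repeat protein, at 11.58 ± 0.29.

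Membrane proteins, enzymes and regulators of the osteoblast covered a wide span of signal. The parathyroid hormone receptor Pth1r was at 11.88 ± 0.05 and the osteoblast membrane protein Ifitm5 at 11.80 ± 0.34. The homeobox factor Dlx3 was at 11.84 ± 0.31 and Creb3l1, a factor of the secretory pathway, at 11.33 ± 0.59. Spns2, a sphingosine phosphate transporter, was at 11.18 ± 0.28. Enpp1 and Ankh, which supply the mineral inhibitor pyrophosphate, were at 9.62 ± 0.20 and 9.12 ± 0.21. Dlx5 was at 9.57 ± 0.45, the folding protein Fkbp11 at 9.24 ± 0.21 and Runx2, the factor that commits cells to the lineage, at 8.58 ± 0.29. Alpl, tissue-nonspecific alkaline phosphatase, read 9.68, 8.84, 8.77 and 9.62, and a second measured probe read 9.14 on average. Below the median of all genes lay Col24a1 at 6.97, the vitamin D receptor Vdr at 6.61, the phosphatase Phospho1 at 5.91, Bmp8a at 5.49 and the osteoblast factor Sp7 at 5.43 ± 0.48, which ranked 15496.

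Osteocyte genes were split between bright and dim probes. Of 15 in the list, 14 were measured, with a median percentile of 62.2. Mepe, the matrix phosphoglycoprotein, read 13.30, 12.68, 13.19 and 13.02 and ranked 628. The citrate transporter Slc13a5 was at 12.11 ± 0.26, Dmp1, the dentin matrix protein, at 11.02 ± 0.25, the dendrite protein Pdpn at 10.84 ± 0.37 and the hyaluronan receptor Cd44 at 10.52 ± 0.13. Irx5 was at 9.19 ± 0.34, the Wnt antagonist Dkk1 at 8.81 ± 0.21, the phosphatase Ptprz1 at 8.47 ± 0.26, the chemokine scavenger Ackr3 at 7.41 ± 0.36 and the potassium channel Kcnk2 at 6.78 ± 0.44. Phex, an endopeptidase of phosphate control, was at 4.92 ± 0.36, Sema3e at 4.78 ± 0.75 and Fbln7 at 4.46 ± 0.12. Fgf23, the phosphate-lowering hormone of osteocytes, was well above background on 1 of 4 arrays.

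Sost itself gave a dim signal in uncut bone. It read 5.81, 4.67, 5.34 and 5.17 on replicates 1 to 4, a mean of 5.25 ± 0.47, and ranked 15980, with 1 probe. The dimmest 5% of measured genes lay at or under 4.21, so Sost was above that edge on every array, highest on replicate 1 and lowest on replicate 2. Among secreted Wnt antagonists 8 of 11 were measured, with a median percentile of 66.2. Wif1 was at 9.46 ± 0.30, Dkk3 at 9.34 ± 0.53 and Frzb at 9.25 ± 0.44. Sfrp2 read 8.47, 7.54, 5.86 and 8.93 and was lowest on replicate 3. Sostdc1 was well above background on 2 arrays, and Dkk2 and Notum on 0.

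Osteoclast genes were present, with the cytokine that drives them near the limit. Of 15 osteoclast genes on the array 13 were measured, at a median percentile of 70.2. Acp5, tartrate-resistant acid phosphatase, read 13.62, 13.45, 14.09 and 13.69, the collagen-degrading protease Ctsk 13.18, 12.76, 13.54 and 13.32 and carbonic anhydrase Car2, which red cells also hold, 13.08, 14.00, 13.36 and 13.65. Atp6v0d2, a proton pump subunit, had the largest SD of the list, 8.79 ± 0.58, and 8 of the 13 were highest on replicate 3, against 23.3% of all measured genes. Tnfsf11, which encodes RANKL, and its receptor Tnfrsf11a were each well above background on 2 arrays, and the fusion gene Dcstamp on 1. Csf1, the macrophage growth factor, was at 8.99 ± 0.41, Il34, another ligand of its receptor, at 9.32 ± 0.57 and Lgr4 at 9.60 ± 0.26.

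Genes of the red cell lineage were among the brightest. All 22 erythroid genes were measured, at a median percentile of 94.9, with 11 among the 1000 highest. Hba-a1, an alpha globin, ranked 2 and read 17.89, 17.77, 17.55 and 17.51. Hbb-b1, a beta globin, ranked 4 at 17.47 ± 0.19, Ahsp, which stabilises free alpha globin, 16 at 16.67 ± 0.31, Hbe2, an epsilon-type globin, 17 at 16.67 ± 0.20 and Hba-a2 28 at 16.30 ± 0.22. Globin genes are near copies of each other, so a probe may read more than its own gene. The transferrin receptor Tfrc read 12.74, 13.81, 12.94 and 13.46, the largest SD of the list at 0.49.

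Granulocyte genes were also bright, with 4 of the precursor and 4 of the mature list among the 1000 highest. Of 14 granulocyte precursor genes on the array 13 were measured, at a median percentile of 91.7. The defensins RatNP-3b, Np4 and Defa5 ranked 13, 14 and 22, at 16.78 ± 0.20, 16.75 ± 0.22 and 16.49 ± 0.22, and as members of a multigene family may share signal. Ngp, a granule protein, was at 11.56 ± 0.27, and lactoferrin, Ltf, was well above background on 0 of 4 arrays. Among mature neutrophil genes 14 of 15 were measured, at a median percentile of 78.6. The alarmins S100a9 and S100a8 were at 16.05 ± 0.15 and 15.69 ± 0.19 and lysozyme, Lyz2, at 15.64 ± 0.11. Of 19 mast cell, eosinophil and basophil genes on the array 17 were measured, at a median percentile of 69.0. The brightest were Mcpt8, a basophil protease, at 15.38 ± 0.22, Prg2, the eosinophil major basic protein, at 14.46 ± 0.39 and Mcpt10 at 13.89 ± 0.30. Ear1 of that list was at 6.57 ± 0.72, and Il5ra and Mcpt4 were well above background on 0 arrays.

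Macrophage, B cell and platelet genes were measured too. Of 20 monocyte and macrophage genes 18 were measured, at a median percentile of 76.4, with the complement subunits C1qb and C1qa at 13.29 ± 0.16 and 12.18 ± 0.18. Cx3cr1, at 8.90 ± 0.59, was read by a probe with a word found 123 times over the promoter windows. Of 17 B lineage genes on the array 17 were measured, at a median percentile of 50.1. Cd22, an inhibitory receptor, was at 13.64 ± 0.31 by its brightest probe but at 7.37 and 4.55 by its other 2, the immunoglobulin joining chain Jchain at 12.15 ± 0.20 and Ebf1, a lineage factor that stroma also holds, at 10.79 ± 0.14. Vpreb1a, a surrogate light chain of precursor B cells, read 6.69, 7.88, 8.21 and 7.63, lowest on replicate 1, and 13 of the 17 were lowest there, against 28.8% of all measured genes. All 13 platelet and megakaryocyte genes were measured, at a median percentile of 81.0. Pf4, a platelet chemokine, was at 13.14 ± 0.26, Clec1b at 11.60 ± 0.31 and Ppbp at 11.15 ± 0.32. T and NK genes were mostly dim, with 16 of 19 measured and a median percentile of 18.8, which ran from 17.1 to 53.8 over the alternatives, and Nkg7, which granulocytes may also express, was the highest at 12.12 ± 0.15. Cd3e read 5.23, 4.70, 5.85 and 5.77.

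Dividing cells left a broad trace. All 27 cell cycle genes were measured, at a median percentile of 84.3. Mki67, a marker of dividing cells, read 12.81, 13.74, 13.20 and 13.22, and Cdk1, the kinase of mitotic entry, 11.73, 12.67, 12.24 and 12.14. Both were highest on replicate 2 and lowest on replicate 1. The same held for the list, with 26 of 27 highest on replicate 2 and 25 of 27 lowest on replicate 1, while over all measured genes 31.9% were highest on replicate 2 and 28.8% lowest on replicate 1.

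Genes of stroma, vessels and fibrous tissue were measured throughout. All 11 stromal niche genes were measured, at a median percentile of 80.0, led by Cxcl12, the chemokine that holds blood progenitors in marrow, at 13.83 ± 0.07, Vcam1 at 13.24 ± 0.17 and Cxcl14 at 12.91 ± 0.30. All 15 endothelial genes were measured, at a median percentile of 49.7, with Vwf at 10.63 ± 0.08, the VEGF receptor Kdr at 10.50 ± 0.31 and Plvap at 10.09 ± 0.46. All 16 periosteum and fibroblast genes were measured, at a median percentile of 73.1. S100a4 was at 13.83 ± 0.25, Col3a1, type III collagen, read 14.06, 11.97, 13.90 and 13.62, and the limb and skull mesenchyme factor Prrx1 read 11.52, 10.03, 10.78 and 10.98. Small leucine-rich and noncollagen matrix genes were measured for 19 of 20, with Mgp, matrix Gla protein, at 15.21 ± 0.99, Bgn, biglycan, at 14.67 ± 0.36 and Dcn, decorin, at 13.60 ± 0.46.

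Cartilage genes were partly measured, and most fat cell genes were. Of 13 chondrocyte genes 7 were measured, at a median percentile of 44.6. Col10a1, Col9a1, Matn1 and Matn3 were well above background on 0 of 4 arrays. Col11a1, a chain that osteoblasts also make, was at 11.11 ± 0.25, and Ucma, a cartilage Gla protein, was at 10.38 ± 1.39 and lowest on replicate 3. Among adipocyte genes 10 of 12 were measured, at a median percentile of 66.9, with Cfd, adipsin, at 13.75 ± 0.23, Lpl at 10.84 ± 0.17 and Retn, resistin, at 10.81 ± 0.17, while Plin1 was well above background on 1 array and Ucp1 on 0.

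Most liver, kidney, pancreas, lung and testis markers were near the floor. Of 25 liver, kidney, pancreas, lung and testis genes 4 were measured, and Alb, Ins2, Umod and Sftpc were well above background on 0 arrays. Ttr, transthyretin, a product of liver and choroid plexus, read 5.66, 5.98, 6.70 and 7.91. Of 13 keratinocyte genes on the array 5 were measured. Tp63, at 11.58 ± 0.21, was read by a probe with a word found 32 times over the promoter windows. Krt10 was at 6.64 ± 0.03, and Krt5 was well above background on 0 arrays. Of 12 olfactory and respiratory mucosa genes 7 were measured, at a median percentile of 16.2.

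Housekeeping and stress programmes gave the following baseline. Of the 37 cytosolic ribosome genes 36 were among the 1000 highest, led by Rps12 at 16.51 ± 0.14, Rplp0 at 16.48 ± 0.20 and Rplp1 at 16.46 ± 0.20. Respiratory chain genes, 23 of 23 measured, had a median percentile of 95.9, with Cox6a1 at 14.89 ± 0.15. Hspa8, a constitutive heat shock chaperone, was at 15.65 ± 0.11 and Hsp90aa1 at 13.49 ± 0.12. The inducible Hspa1a read 7.40, 8.59, 8.39 and 8.72, lowest on replicate 1. Interferon-stimulated genes were measured for 18 of 20, at a median percentile of 76.6. Rsad2 was at 14.20 ± 0.18 and Mx2 at 13.05 ± 0.16, and Oas1b, at 13.56 ± 0.11, was read by a probe with a shared word. Another Mx2 probe was at 2.85 and well above background on 1 array only. Metallothioneins Mt2A and Mt1, which glucocorticoids and metals induce, were at 15.16 ± 0.46 and 14.61 ± 0.36. Of the 14 common reference genes, B2m, Ppia and Pgk1 had SDs of 0.03, 0.14 and 0.10. The SDs of the list ran from that of B2m to 0.49 for Tfrc. Of the 14, 11 were highest on replicate 2, against 31.9% of all measured genes, and 8 lowest on replicate 1. Under quantile normalization 7 were highest on replicate 2. The list mean had a range of 0.33 between arrays.

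Inflammatory and immediate early genes were measured in this operated bone. Of 22 cytokine and chemokine genes 21 were measured, at a median percentile of 51.4. Ccl2, which draws monocytes, read 12.39, 10.56, 11.74 and 11.92 and Cxcl2, which draws neutrophils, 9.77, 10.28, 12.09 and 11.29, so the arrays differed in which was high. Among 22 of 23 immediate early genes measured, at a median percentile of 49.7, Jund was at 12.44 ± 0.08, Ier2 at 11.11 ± 0.16 and Btg2 at 10.56 ± 0.24. Atf3, a stress-induced factor, read 7.17, 8.29, 8.69 and 9.25. Of the clock genes Dbp was at 11.19 ± 0.39, Per1 at 10.69 ± 0.49 and Nr1d1 at 5.14 ± 0.53. Of 7 sex-linked genes 3 were measured. The Y-linked Kdm5d and Eif2s3y were measured on all 4 arrays at 7.99 ± 0.10 and 7.97 ± 0.12. Xist was well above background on 0 of 4, and so were the Y-linked Sry, Uty and Usp9y.

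Most genes agreed closely between the 4 arrays. The median SD was 0.20, and the highest array exceeded the lowest by a median of 1.36-fold. The median SD fell from 0.31 in the dimmest 20% of the genes to 0.15 in the brightest 20%. For 1213 measured probes that are printed in 10 spots, the SD between spots within an array had a median of 0.050 to 0.054. The SD of their array means had a median of 0.164, so noise between spots was smaller than the spread between arrays. Noise shared by all spots of an array, as from labelling or scanning, was not measured apart from that spread. An SD above 0.5 was found for 1807 genes, or 9.41%, and above 1 for 374, or 1.95%. Without replicate 4 the last count was 227.

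**Figure D2:**
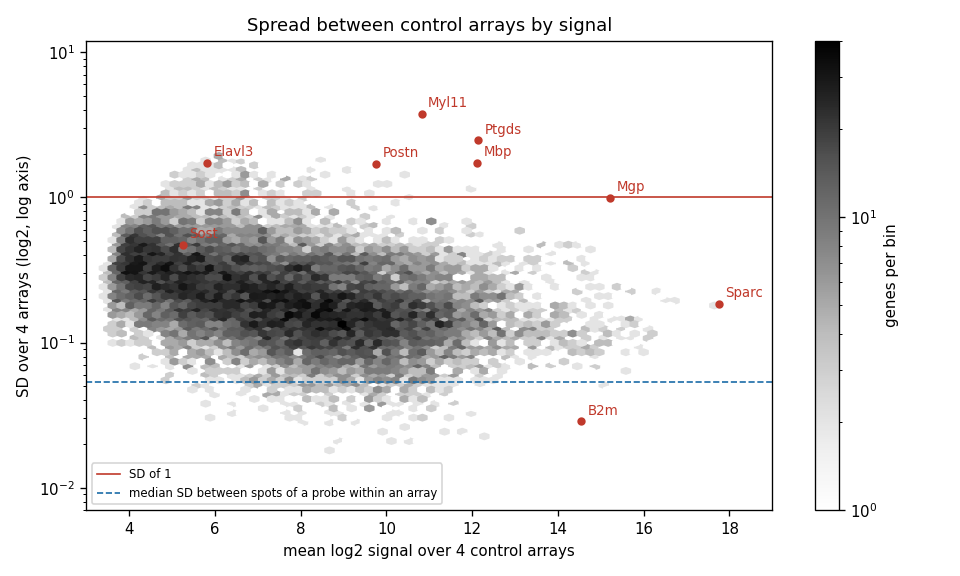
SD over the 4 control arrays (y axis, log scale) against mean log2 signal (x axis) for all measured genes, shaded by the number of genes per bin. Lines mark an SD of 1 and the within-array spread of probes printed in 10 spots. Myl11, Ptgds, Mbp and Postn stand far above the cloud, and B2m and Sparc lie low.

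Genes of large spread fell into a few patterns over the arrays. Of the 374, grouped by the widest gap between their 4 values, 191 were high on replicates 1, 2 and 3 and low on 4, 42 were high on 2 and 4, 37 were low on 3 alone, and 25 were high on 3 alone. Replicate 4 lay more than 1 below every other array for 363 genes, against 25, 47 and 105 genes for replicates 1, 2 and 3. Of the 191, 14 were on the neuron, astrocyte or oligodendrocyte lists, and of the 42, 11 were on the muscle list, so most were on no such list. The groups are descriptions of these arrays, since the same values formed them.

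Skeletal muscle set replicates 2 and 4 apart from 1 and 3. Myl11, a fast myosin light chain, read 8.14, 14.75, 7.12 and 13.26, a range of 199-fold and the largest SD of all, 3.76. Tnnc2, fast troponin C, read 8.12, 14.45, 8.02 and 13.14, and Tnni2, fast troponin I, 8.20, 14.03, 7.15 and 12.82. Ckm, muscle creatine kinase, read 7.52, 12.33, 5.87 and 11.49, the myosin heavy chain Myh1 6.59, 12.01, 5.42 and 10.63, and the developmental chain Myh8 8.52, 13.84, 7.03 and 12.21. Both of replicates 2 and 4 exceeded both others in each of these genes. Of 16 measured muscle genes 15 showed that order, which 3686 of all 19203 measured genes did, 13 had an SD above 1 against 1.95% of all genes, and the list mean was 7.75, 11.89, 7.07 and 10.80. Car3, carbonic anhydrase 3, which fat also expresses, was the exception at 12.18 ± 0.15. Mb, the myoglobin gene, and Tcap were higher on replicate 4 than on 2, at 12.42 against 11.85 and 10.80 against 10.56, while Actn3 and Pvalb, of fast fibres, read 11.55 and 12.36 on replicate 2 and 8.95 and 9.17 on replicate 4. Acta1, Myl1 and Myh4 were not measured by the rule, being above background on 3 arrays, and Myh7, the slow myosin, on 0. Pdk4, a kinase of fuel choice in muscle that also answers to glucocorticoids, read 6.48, 9.79, 6.32 and 9.31.

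Neural genes were low on replicate 4. Mbp, myelin basic protein, read 13.16, 12.45, 13.29 and 9.60, while its other measured probe was at 7.42 ± 0.19. Hpcal4, a neuronal calcium sensor, read 8.87, 8.64, 10.27 and 5.23, Uchl1, a ubiquitin hydrolase of neurons, 9.46, 9.56, 10.86 and 7.29, and Elavl3, a neuronal RNA-binding protein, 6.66, 6.68, 6.69 and 3.24. In each, replicate 4 lay apart from the other 3. Of 17 measured neuron genes 15 were lowest on replicate 4, against 26.2% of all measured genes, and the list mean was 7.42, 7.68, 7.55 and 5.60. Of 13 astrocyte and radial glia genes 9 were lowest there and of 12 oligodendrocyte and myelin genes 6, among the former the brain aldolase Aldoc at 11.12, 11.73, 11.51 and 9.90. Npy, which read 12.15, 13.28, 12.68 and 12.65, did not follow. Gad1, which makes the transmitter GABA and was chosen after its values were seen, read 9.49, 9.79, 7.41 and 6.51 and so was high on replicates 1 and 2 only. The neuron markers Gad2, Nefl, Nefm and Stmn2 were above background on 3 arrays.

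Genes of the meninges and arachnoid were low on replicate 3. Of 13 measured, 10 were lowest there, against 21.2% of all measured genes, and the list mean was 9.40, 9.33, 7.72 and 8.60. Ptgds, the prostaglandin D synthase of leptomeninges, read 13.38, 14.98, 9.76 and 10.43, a range of 37.3-fold. Igfbp2 read 12.76, 12.44, 10.20 and 12.86, and, chosen after their values were seen, the sulfate transporter Slc13a4 9.49, 9.71, 6.59 and 8.84 and the organic anion transporter Slc22a6 7.41, 8.25, 4.30 and 4.53. Replicates 1 and 2 were high throughout, while replicate 4 was high for Igfbp2 and Slc13a4 and low for Ptgds and Slc22a6.

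Fibrous and cartilage matrix varied along other lines. Postn, periostin, a protein of periosteum and sutures, read 10.66, 7.29, 11.06 and 10.07 and was low on replicate 2, as were, chosen after their values were seen, Dpt, dermatopontin, at 9.17, 6.54, 8.87 and 8.60 and Tnn, tenascin N, at 12.85, 10.23, 12.64 and 12.05. Comp, a cartilage and tendon protein, read 9.42, 7.39, 6.25 and 9.08, high on replicates 1 and 4, and Mgp, with 15.79, 15.05, 13.89 and 16.12, was lowest on replicate 3. Tagln, a smooth muscle protein, read 9.75, 8.92, 7.88 and 9.89. Tnmd, tenomodulin of tendon, with 8.95, 8.21, 6.13 and 9.66, and the growth factor Igf2, with 13.23, 12.81, 10.84 and 13.37, were also lowest on replicate 3, and both were chosen after their values were seen.

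A few further genes, all chosen after their values were seen, are given by value. Tph1, which makes serotonin in the pineal gland and elsewhere, read 6.80, 8.04, 9.15 and 10.23. Asmt, the last enzyme of melatonin synthesis, read 3.84, 5.82, 6.94 and 8.14, and the homeobox gene Lhx4 3.67, 5.21, 6.63 and 7.60. Each was highest on replicate 4 and lowest on replicate 1. Aanat, the enzyme that sets the rate of melatonin synthesis, was well above background on 1 array, and Crx and Sag, a factor and an arrestin of pineal and retina, on 0. Obp3 and Mup4, lipocalins that carry odorants and pheromones, read 8.42, 4.99, 4.84 and 7.94 and 8.96, 5.92, 5.42 and 8.49, both high on replicates 1 and 4, as Comp was. What these genes owe to tissue beside the bone was not tested.

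**Figure D3:**
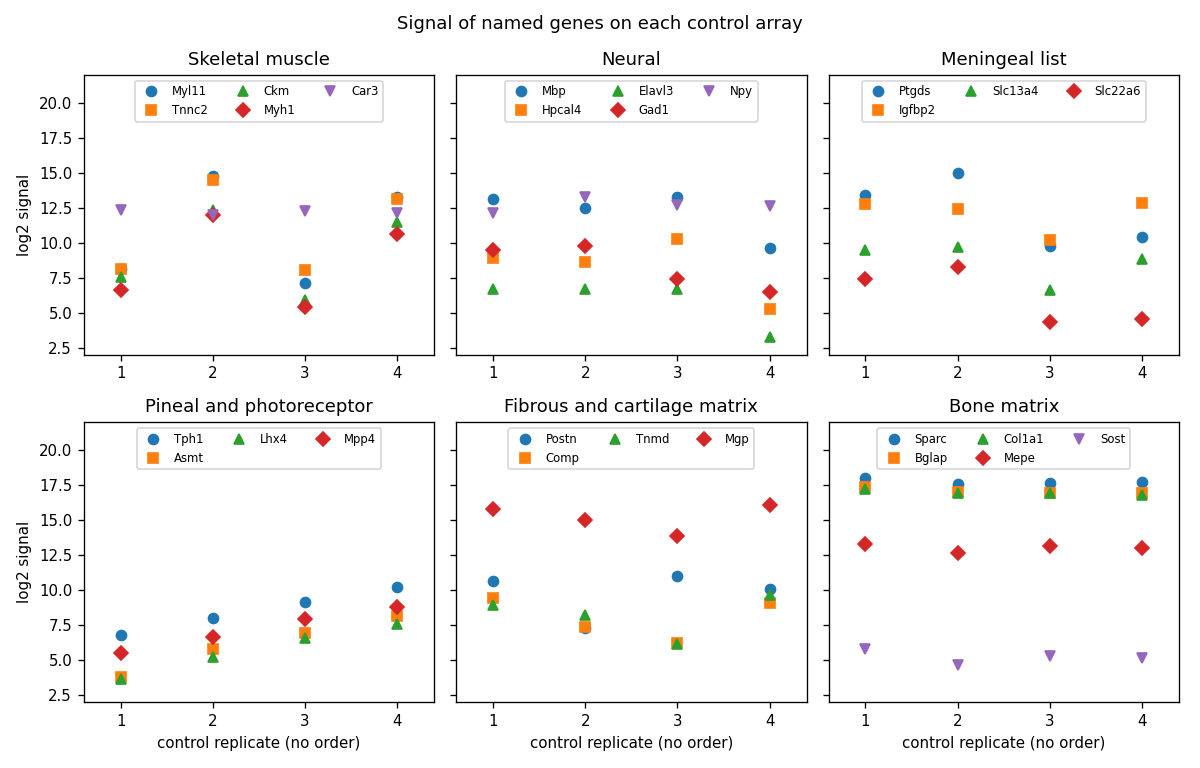
Log2 signal (y axis) of named genes on each control replicate (x axis, with no order among replicates) in 6 groups of genes. Muscle genes other than Car3 are high on replicates 2 and 4, and neural genes other than Npy low on replicate 4. Meningeal genes are low on replicate 3, and Ptgds and Slc22a6 on replicate 4 too. Bone matrix genes are nearly level. Sost, a Wnt antagonist drawn with them, is highest on replicate 1 and lowest on replicate 2.

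Bone and erythroid genes differed less between arrays, and replicate 2 was low for the former and high for the latter. Of the 32 osteoblast and bone matrix genes 25 were lowest on replicate 2 and 22 highest on replicate 1, and of the 14 osteocyte genes 10 were lowest on replicate 2. Of the 22 erythroid genes 21 were highest on replicate 2 and 15 lowest on replicate 1. Over all measured genes 23.8% were lowest on replicate 2 and 31.9% highest there. The osteoblast list mean read 11.34, 10.66, 11.15 and 11.12 and the erythroid mean 12.06, 12.75, 12.19 and 12.26, ranges of 0.67 and 0.69, against 4.82 for skeletal muscle, 2.08 for neurons and 1.68 for meninges. Replicate 2 thus carried the highest erythroid, cell cycle and muscle means beside the lowest bone mean. It was also the highest for the neuron, astrocyte, platelet, granulocyte precursor and respiratory chain means, among others. The osteocyte, periosteum, endothelium, T and NK and cytokine means, among others, were lowest there too. The part of one list in another was not tested. Under the other scalings and sources of values, 25 to 28 osteoblast genes were lowest and 20 to 21 erythroid genes highest on replicate 2. Replicate 2 stayed the highest for the erythroid and cell cycle means and the lowest for the osteoblast mean. The count of osteoblast genes highest on replicate 1 was less steady. It ran from 15, with no scaling between arrays, to 22. The cytosolic ribosome mean, highest on replicate 2 here by a range of 0.18, changed its highest replicate with the scaling.

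**Figure D4:**
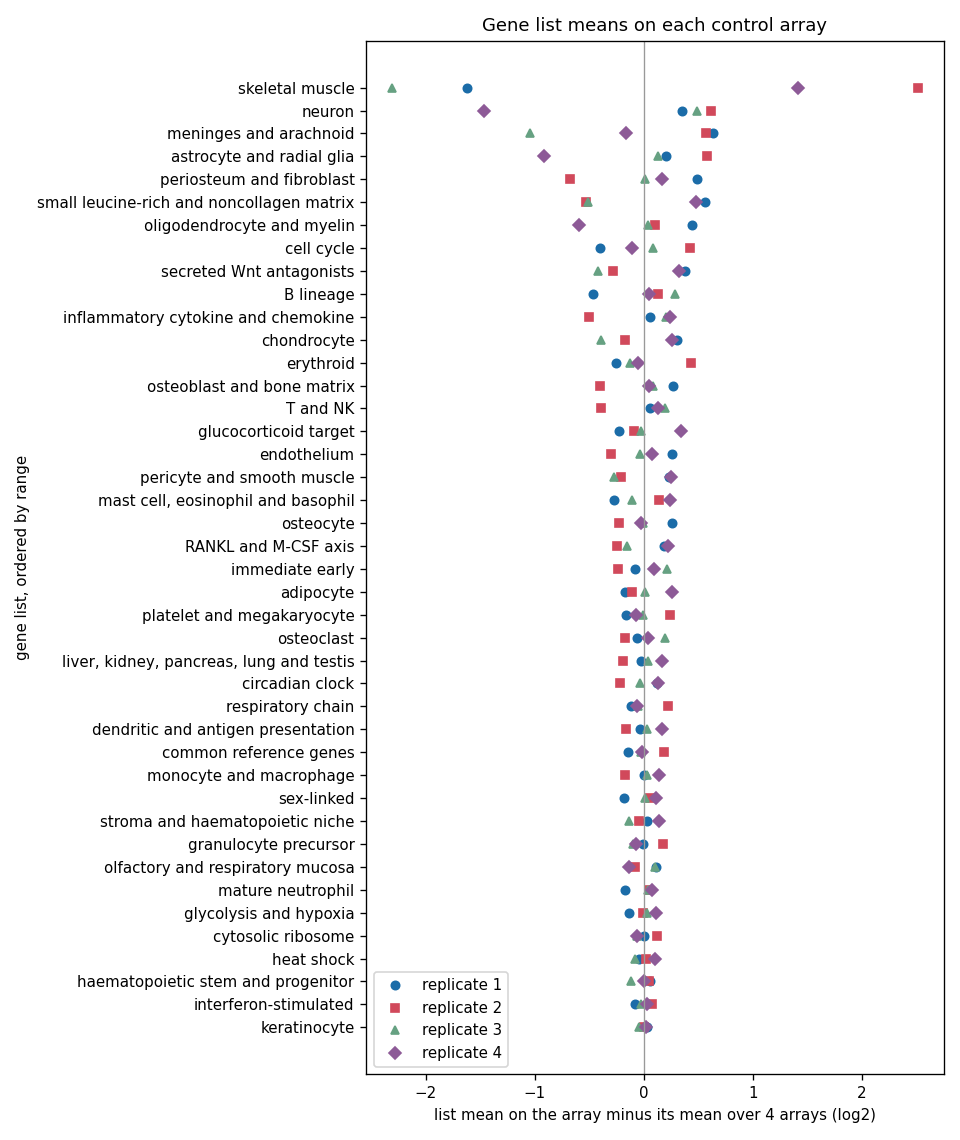
Deviation of each list's mean on an array from its mean over the 4 control arrays (x axis, log2) for 42 gene lists (y axis, ordered by range), with a symbol per replicate. Skeletal muscle spreads furthest, with replicates 2 and 4 to the right, followed by neuron with replicate 4 to the left and meninges with replicate 3 to the left. Most other lists stay within 0.5 of 0.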

How the data were processed

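Total RNA, 200 ng per sample, was labelled with Cy3 and hybridised to one-colour Agilent arrays, per the labels' protocols. The deposited array files hold spot intensity from Agilent Feature Extraction 11.0.1.1, per the submitters' processing notes, and its processed signal was used. The authors' deposited table of log2 values, quantile-normalized by its name, served as an alternative, and 8 of its columns, of other samples, were not used. The sources used here record no further step behind that table.

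Control spots and outlier spots were left out, log2 signals were averaged per probe, and each array was shifted to a common 75th percentile over probes. Genes needed a probe well above background on 4 arrays. No groups were compared and no test was run. The members and gene lists, 42 in all, were chosen with earlier results of these data known. Named genes were the 25 highest, the 3 highest and the most variable of each list, all osteocyte and osteoblast genes, and the 20 of largest SD above the median level, of which a few are not reported here. Other genes are marked as chosen after their values were seen. Symbols were updated through RefSeq for 21184 probes, 46.5%. Sequences come from the array files and, for the promoter, from RefSeq (GRCr8). The calculations were tested on simulated data. Python 3.11.15, pandas 2.3.3 and, for normexp background correction with an offset of 50, limma 3.58.1 were used. The number of arrays limits the precision.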

Additional observations from a re-analysis of the deposited data

Results flagged for a closer look

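Among 215 named genes and 42 list means, 8 genes and 2 list means had 1 array far from the other 3, judged by the gap to the nearest array over the whole range of the 4. Chance flags about 1 in 20 groups, and neither count is above that rate. Values are the distance of that array from the median of the other 3, in log2. Bglap was 0.41 higher and Cx3cr1 1.21 higher on replicate 1. Mt2A stood at -0.86, Ankh at -0.40 and Ibsp at -0.33 on replicate 2. Igfbp2 stood at -2.56 on replicate 3. Elavl3 stood at -3.44 on replicate 4, and Clec9a, a receptor of dendritic cells, was 0.90 higher there. The mature neutrophil mean stood at -0.22 on replicate 1 and the neuron mean at -1.95 on replicate 4.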

How the results depend on the processing

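The count of genes, the 100 highest and the spread were recomputed under the listed alternatives. Dropping the background filter replaced the count of genes well above background by all 34909 with a value. The median SD between arrays was then 0.230 and the genes with SD above 1 numbered 1764. Asking for 2 of 4 arrays gave 0.216 and 880, and normexp 0.141 and 103, while 0.177 and 162 came from the deposited table of the authors. With no scaling the median SD was 0.221. Leaving out 1 array at a time gave a median SD of 0.179 to 0.20 and 227 to 493 genes with SD above 1. Of the 100 highest genes 72 were shared with a ranking by the mean of a gene's probes and 74 with the authors' table. The named gene levels moved beyond their SD for 123 of 213 genes in that table, 58 of 215 with the mean of probes and 36 of 215 with normexp. The list percentiles moved beyond their SD for 40 of 42 lists without the filter and 19 of 42 with the mean of probes. The array on which a list mean was highest or lowest changed with the scaling for some lists, among them cytosolic ribosome, T and NK, chondrocyte and secreted Wnt antagonists. No paired analysis was possible because no groups were compared. Dim genes, Sost among them, are the least precise here, since SD was larger at low signal.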
